A study of Saccharomyces cerevisiae with 12 samples.

Results

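The 26S proteasome genes of budding yeast and RPN4, the transcription factor that activates them, were followed through sporulation. The members were taken by systematic identifier, which gave 14 subunits of the 20S core particle, 18 subunits of the 19S regulatory particle and RPN4, 33 genes of 6293 on the arrays. Of the 33 listed identifiers, 32 were found as written. The list gives RPT6 as YGL048W, which no spot carries, and the spots labelled YGL048C, named RPT6 in the R64 gene table, were taken for it. All 33 genes had a value at every time.

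Total RNA came from cells of the Saccharomyces cerevisiae strain SK1, which is widely used because it sporulates fast and nearly in step. Samples were taken at 0.5, 1.0, 1.5, 2.0, 2.5, 3.5, 4.0, 4.5, 5.0, 5.5 and 6.0 h and at 0.0 h, while 3.0 h was not analysed here. Each of the 12 samples pooled 6 synchronized cultures, per the labels. Each was set against time-zero RNA on 2 spotted 2-colour arrays of opposite dye, with the sampled RNA in Cy5 on the A array and in Cy3 on the B array. A value is the log2 ratio of a time to time zero, averaged over the A and B arrays, and are relative to the typical gene of each array. For tests, 0.5 to 2.0 h formed the early window (4 samples), 2.5 to 4.5 h the middle window (4 samples), 5.0 to 6.0 h the late window (3 samples), and 0.0 h stood alone.

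The proteasome degrades proteins that carry ubiquitin chains. Its core particle is a barrel of outer alpha rings and inner beta rings, and 3 of the beta subunits cut peptide bonds. The regulatory particle caps the barrel: its base holds the ATPases that unfold substrates, and its lid removes ubiquitin. In vegetative yeast, Rpn4 binds a shared element in the promoters of most subunit genes and is itself a very short-lived proteasome substrate, so subunit genes tend to be transcribed together. In meiosis the proteasome removes inhibitors of chromosome segregation marked by the anaphase-promoting complex.

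The agreement of the paired arrays limits what single values can show. Over all genes, the correlation of A with B log2 ratios at a time ran between -0.02 and 0.58, with a median of 0.27, as a description across genes. The lowest were -0.01 at 5.0 h and -0.02 at 6.0 h. Both times enter every comparison with the late window, whose remaining sample, 5.5 h, had 0.51. The share of genes brighter than the 95th percentile of blank spots lay between 24.0% and 89.7% for the sampled RNA, and for time-zero RNA between 17.6% and 84.6%. Among the members, PRE1 exceeded that level in the sampled channel on only 7 of the 22 later arrays and on 0 of the 8 early ones, while the other 32 genes did so on 14 to 22. Markers of sporulating diploids and of haploid cells checked the label. Of 13 sporulation genes, 5 rose in the late window against the middle one by the test described below, among them NDT80, the activator of middle sporulation genes (difference 3.27 ± 0.49, SE, adjusted p = 0.00292), and SPR3, a sporulation septin (4.88 ± 0.53, adjusted p = 0.000502). None of 14 haploid markers passed it in any comparison. Only 0% to 3.63% of all genes passed per comparison, so this count says little. The median of the haploid list stayed between -0.24 and 0.39 at all times, and 0 to 12 of its genes exceeded the blank level on an array. Single haploid markers moved more than this median. For late minus zero, STE4 differed by 2.975, STE18 by 2.996 and MFA2 by -2.787, with 7 of the 14 above 0 and 7 below. In the single 0.0 h sample STE4 stood at -0.64, STE18 at -0.81 and MFA2 at 1.86. The haploid list therefore does not show that haploid transcripts were absent or unchanged. In the mean of both arrays, the sporulation markers also set the 4.5 h sample apart from its neighbours. Their median was 1.95 at 3.5 h, 0.66 at 4.0 h, 0.05 at 4.5 h and 1.35 at 5.0 h. In that mean, 10 of 13 were lower at 4.5 h than at both 4.0 and 5.0 h, against 35.7% of all genes. By array, the median was 1.86 on A and 0.08 on B at 4.0 h, and -0.03 and -0.23 at 4.5 h. At 5.0 h it was -0.16 on A and 5.24 on B, so on A it was not lower at 4.5 h than at 5.0 h. HOP1, a chromosome axis gene, was at 3.60, 0.25 and 3.43 at 4.0, 4.5 and 5.0 h. DMC1, the meiotic recombinase gene, was at 2.09, -1.67 and 1.35, and IME1, the master regulator of entry, at 1.77, -3.11 and -0.01. These were among the larger drops. SPO11 (0.54 to 0.45) and SMK1 (0.33 to 0.27) fell little from 4.0 to 4.5 h. The exceptions were SPS4 (2.48, 0.98 and -0.20 at the same times), SPS1 (0.27, 0.17 and -0.99) and SPR3 (-0.07, 0.006 and 3.93). In pooled cultures, fewer cells of a type and less RNA per cell cannot be told apart.

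**Figure D1:**
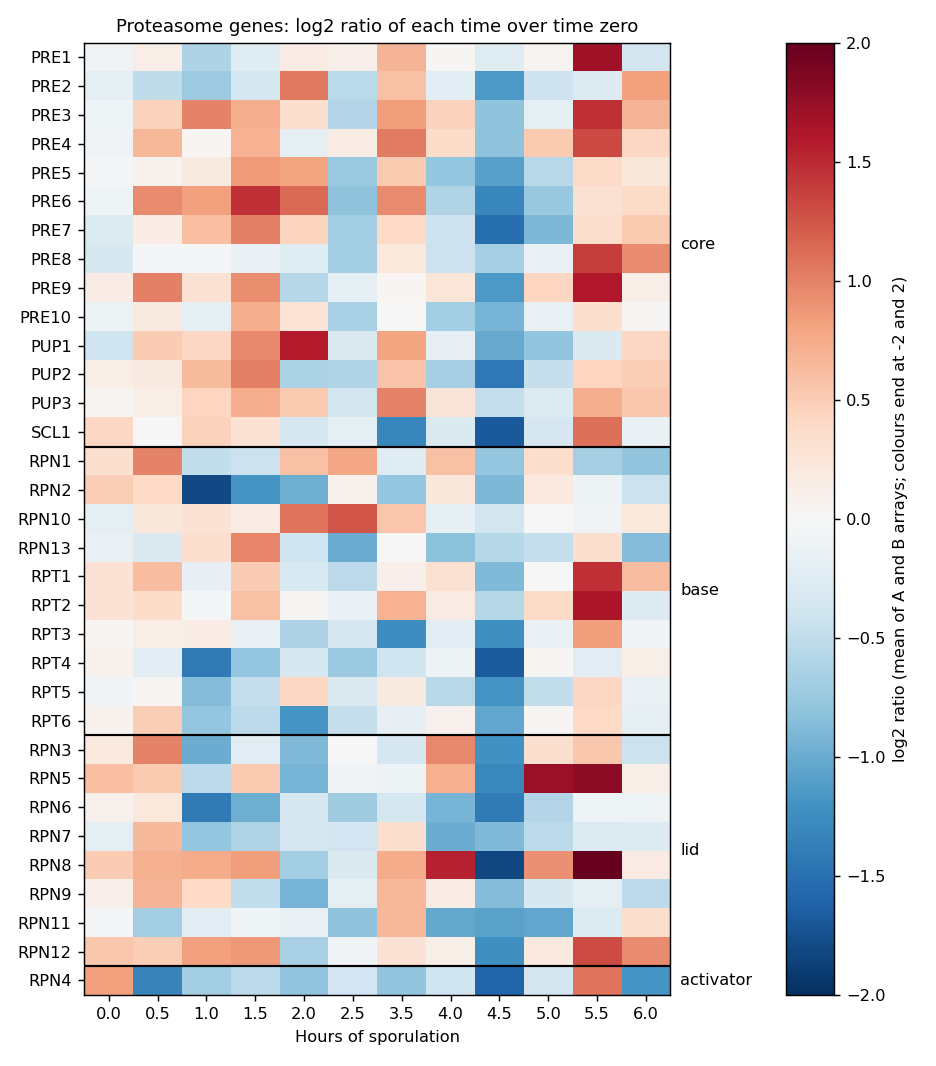
Log2 ratio over time zero of the 33 genes (rows, by role) at the 12 times (columns, hours), as the mean of the A and B arrays; the colour scale gives the log2 ratio. The 4.5 h column is below 0 in every row, from -1.82 (RPN8) to -0.24 (PRE1), and the core rows are mostly above 0 at 1.5 h.

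The 4.5 h sample held the lowest value of the 11 later times for 24 of 33 genes (12 of 14 core, 11 of 18 regulatory and RPN4), against 9.25% of all genes. All 33 averaged below 0 there, against 50.4% of all genes, and 31 of 33 were below 0 on both arrays, against 31.7% of all genes measured on both. The exceptions were PRE1, a structural beta subunit at 0.18 on the A array and -0.66 on the B array, and RPN10, a ubiquitin receptor at 0.17 and -0.90. The median of the 33 genes was -1.20 on the A array and -0.93 on the B array. Of the 33, 31 were lower at 4.5 h than at both 4.0 and 5.0 h, as were 10 of 13 sporulation markers in the same sample, whose part in the result was not tested. The SD over members at 4.5 h was 0.386 against 0.685 over all genes, and it was also below that of all genes at each of the other times.

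Core and regulatory particle shared this level, with medians of -1.05 for the 14 core genes and -1.05 for the 18 regulatory genes. Within the regulatory particle the 8 lid genes had a median of -1.22 and the 10 base genes one of -0.89. RPN8, the lid partner of the deubiquitinase Rpn11, was lowest at -1.82, followed by SCL1, an alpha ring subunit, at -1.68, and RPT4, a base ATPase, at -1.66. In the authors' deposited table, all 33 genes were likewise below 0 at 4.5 h, with a core median of -0.95 and a regulatory median of -0.96.

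The signal was low on the A array of this time. There, 17 of 33 members exceeded the blank level in the 4.5 h channel and 31 in the time-zero channel, against 24.0% and 32.5% of all genes. On the B array 31 members exceeded it in the 4.5 h channel and 33 in the time-zero channel, against 73.5% and 83.5% of all genes. The members' median was -1.20 on the A array and -0.93 on the B array, and the part of signal in the result was not tested. The 4.5 h sample was not tested on its own, and the window comparisons below are given with and without it where it moves them.

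Other lists of protein quality control had medians below 0 at 4.5 h too, where 50.4% of all genes were below 0. Heat-shock chaperones had a median of -0.97, with 20 of 24 below 0, and at -1.52 on A and -0.58 on B they lay below the members' median on A and above it on B. The ubiquitin system, which supplies the substrates, had a median of -0.43 with 20 of 25 below 0, and proteasome assembly and accessory factors one of -0.30 with 11 of 14 below 0. Vacuolar proteases, the other main route of protein breakdown, had a median of -0.16 with 7 of 9 below 0. Low values in these lists were not particular to 4.5 h. The chaperone median was lower at 0.5 h (-1.455) and at 1.0 h (-1.75). All 9 vacuolar proteases were below 0 at 1.0, 1.5 and 3.5 h. Of these lists, only the ubiquitin and accessory ones had their lowest median at 4.5 h. The 4.5 h values are descriptions of 1 sample.

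**Figure D2:**
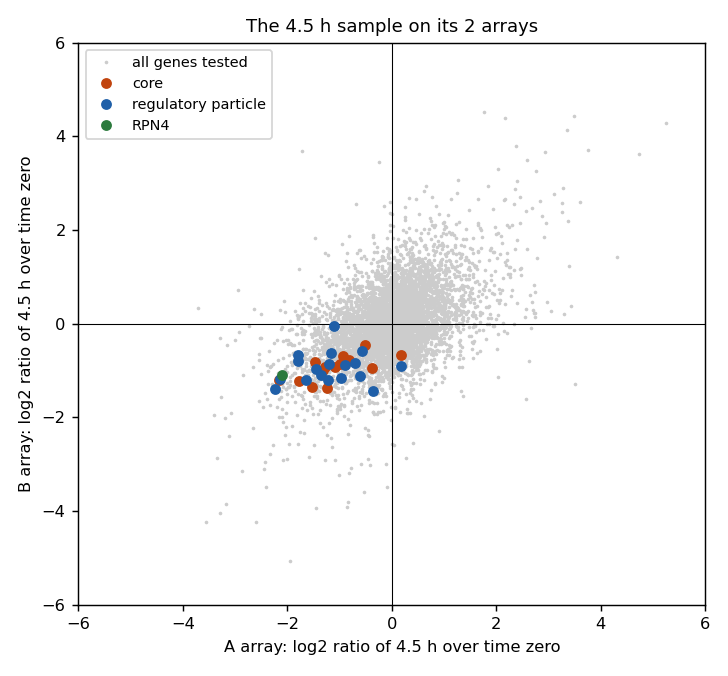
Log2 ratio of 4.5 h over time zero on the A array (x axis) and on the B array (y axis) for each gene measured on both; coloured points are core, regulatory particle and RPN4, and grey points all other genes. Of the 33 members, 31 lie at the lower left, below 0 on both arrays.

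Core and regulatory medians differed at several times. At 1.0 h the median was 0.36 for the core against -0.36 for the regulatory particle, at 1.5 h 0.73 against -0.18, and at 2.0 h 0.30 against -0.38. At each of these 3 times 12 of 14 core genes lay above the regulatory median. The core-minus-regulatory difference was 0.83 on the A array and 0.63 on the B array at 1.0 h. At 1.5 h it was 1.37 on A and 0.37 on B, and at 2.0 h 1.80 on A and -0.19 on B. The direction was thus shared by both dye orientations at 1.0 and 1.5 h and not at 2.0 h. The regulatory median itself differed in sign between orientations at 1.5 h (-0.73 on A, 0.45 on B) and at 2.0 h (-1.20 on A, 0.37 on B), while the core median was above 0 on both at these times.

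At 1.5 h, 10 of the 13 core genes measured on both arrays were above 0 on both, against 32.5% of all genes, while 5 of 18 regulatory genes were. The value of PRE8, an alpha ring subunit, rests on the B array alone at that time. The core median was also the higher one at 3.5 h, at 0.58 against 0.05, with a difference of 0.44 on A and 0.59 on B and 11 of 14 core genes above the regulatory median. Both medians differed in sign between the arrays at 3.5 h. The core stood at -0.15 on A and 1.28 on B, the regulatory particle at -0.59 and 0.69. The core median was again the higher one at 5.5 h, by 0.22 (0.42 on A, -0.05 on B), and at 6.0 h, by 0.54 (0.70 on A, -0.05 on B). At 0.5, 2.5, 4.0 and 5.0 h it was the lower one. At 0.5 h the medians were 0.16 for the core and 0.45 for the regulatory particle, and the difference of -0.28 was 0.23 on A and -0.67 on B. At 2.5 h, 10 of 14 core genes and 6 of 18 regulatory genes were below 0 on both arrays, against 26.0% of all genes.

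**Figure D3:**
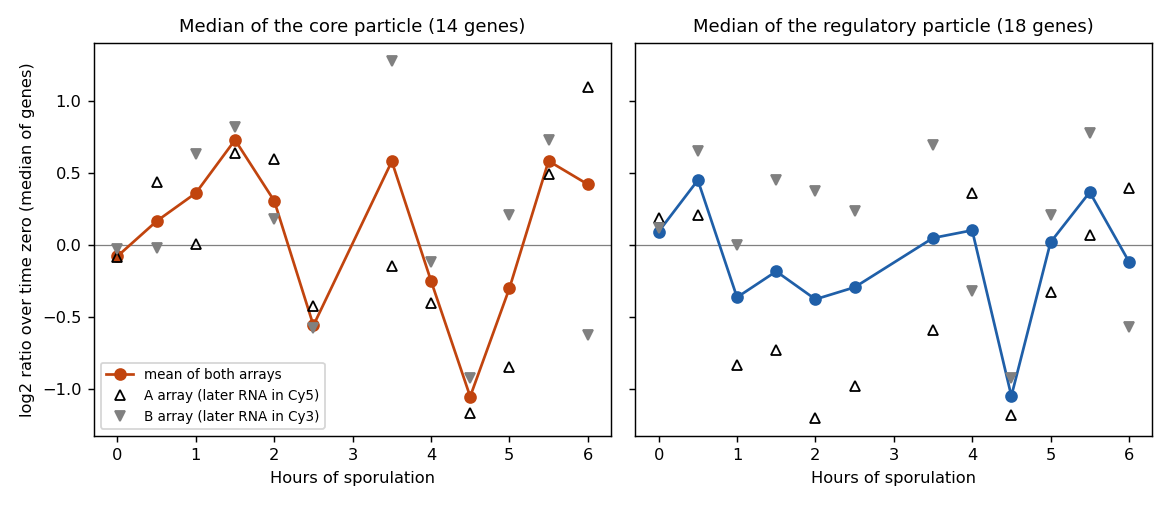
Median log2 ratio over time zero (y axis) against hours (x axis) for the 14 core genes (left) and the 18 regulatory particle genes (right); joined points are means of both arrays, and triangles are the A and B arrays apart. The core median is above the regulatory one at 1.0, 1.5, 2.0, 3.5, 5.5 and 6.0 h, and both are -1.05 at 4.5 h.

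The catalytic beta subunits did not share one course. PUP1 (YOR157C), the trypsin-like subunit, was at 0.51, 0.42, 0.96 and 1.58 in the early window, at -0.29, 0.79, -0.16 and -1.01 in the middle window and at -0.79, -0.30 and 0.42 in the late one. Its early values were above all but 1 of the middle values, which overlapped at 3.5 h. PRE3 (YJL001W), the caspase-like subunit, was at 0.46, 0.98, 0.73 and 0.34 early, at -0.58, 0.84, 0.47 and -0.80 in the middle and at -0.18, 1.46 and 0.67 late. PRE2 (YPR103W), the chymotrypsin-like subunit and target of proteasome inhibitors, was below 0 at 8 of the 11 later times and highest at 2.0 h, at 1.05. The 3 windows overlapped for PRE2 and PRE3.

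The structural beta subunits were PRE1 (YER012W), PRE4 (YFR050C), PRE7 (YBL041W) and PUP3 (YER094C). PRE4 ran from -0.81 at 4.5 h to 1.32 at 5.5 h, and PUP3 from -0.48 at 4.5 h to 0.99 at 3.5 h. PRE7 was at 0.15, 0.60, 1.01 and 0.45 in the early window, at -0.68, 0.39, -0.42 and -1.51 in the middle window and at -0.89, 0.35 and 0.53 in the late one. Its early and middle values overlapped only through the 3.5 h sample. PRE1 ran from -0.62 at 1.0 h to 1.69 at 5.5 h, and its values are those of a spot near the blank level.

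In the alpha ring, which gates entry to the barrel, PRE6 (YOL038W) had the highest early mean of the 33 genes. It was at 0.95, 0.82, 1.46 and 1.14 at 0.5, 1.0, 1.5 and 2.0 h, then at -0.81, 0.95, -0.60 and -1.31 at 2.5, 3.5, 4.0 and 4.5 h, and at -0.75, 0.31 and 0.38 at 5.0, 5.5 and 6.0 h. All 8 early arrays gave a value above 0 for it, from 0.43 to 1.92. Its 3.5 h sample lay inside the early range and the other middle samples lay below it. At 6.0 h its arrays stood at 2.17 on A and -1.40 on B, so that the mean of 0.38 stands for neither.

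PRE5 (YMR314W) and PRE10 (YOR362C) followed a similar order at smaller size. PRE5 was at 0.07, 0.17, 0.85 and 0.79 early and at -0.75, 0.52, -0.78 and -1.09 in the middle, and PRE10 at 0.18, -0.18, 0.73 and 0.27 early and at -0.64, 0.01, -0.69 and -0.93 in the middle. In both genes the 3.5 h sample overlapped the early values. PRE8 (YML092C) differed from these: it lay between -0.69 and 0.20 from 0.5 to 4.5 h, and at -0.15, 1.39 and 0.94 in the late window. PRE9 (YGR135W), the alpha subunit that yeast can live without, ran from -1.15 at 4.5 h to 1.61 at 5.5 h, PUP2 (YGR253C) from -1.43 at 4.5 h to 1.01 at 1.5 h, and SCL1 (YGL011C) from -1.68 at 4.5 h to 1.10 at 5.5 h.

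In the base, the ATPase genes RPT1 (YKL145W), RPT2 (YDL007W), RPT3 (YDR394W), RPT4 (YOR259C), RPT5 (YOR117W) and RPT6 form the unfolding ring. RPT1, RPT2 and RPT3 were highest at 5.5 h, at 1.47, 1.63 and 0.83, and all 3 were above 0 on both arrays there. RPT4 was above 0 only at 5.0 h (0.02) and 6.0 h (0.11) among the later times and was lowest at 4.5 h. RPT5 ran from -1.20 at 4.5 h to 0.41 at 5.5 h, and RPT6 from -1.18 at 2.0 h to 0.49 at 0.5 h.

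RPN1 (YHR027C) and RPN2 (YIL075C) are the large scaffolds of the base. RPN2 was at 0.40, -1.80, -1.18 and -0.98 in the early window, and its 1.0 h value, with -2.20 on A and -1.41 on B, was the lowest of any subunit but RPN8 at 4.5 h. RPN1 ran from -0.79 at 6.0 h to 1.00 at 0.5 h. The ubiquitin receptor RPN10 (YHR200W) ran from -0.36 at 4.5 h to 1.26 at 2.5 h, and RPN13 (YLR421C), another receptor, from -0.998 at 2.5 h to 0.98 at 1.5 h.

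In the lid, RPN8 (YOR261C) spanned the widest range of the 33 genes. It was at 0.72, 0.75, 0.84 and -0.68 early, at -0.30, 0.74, 1.55 and -1.82 in the middle and at 0.91, 3.01 and 0.17 late, and the 3.01 at 5.5 h rests on 2.65 on A and 3.38 on B. RPN5 (YDL147W), a scaffold subunit of the lid, was at 0.52, -0.53, 0.52 and -0.93 early, at -0.05, -0.11, 0.72 and -1.30 in the middle and at 1.70, 1.79 and 0.13 late. Its 5.0 and 5.5 h values were above all its earlier ones.

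Of the other lid genes, RPN12 (YFR052W) was highest at 5.5 h, at 1.31, while RPN3 (YER021W), RPN6 (YDL097C), RPN7 (YPR108W) and RPN9 (YDR427W) were highest at 0.5 h, at 0.99, 0.21, 0.64 and 0.68. RPN6, which clamps lid and core together, was below 0 at every later time except 0.5 h. RPN11 (YFR004W), the deubiquitinase that releases ubiquitin chains before degradation, ran from -1.07 at 4.5 h to 0.67 at 3.5 h.

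At 5.5 h, 18 of 33 genes were above 0 on both arrays, against 32.7% of all genes, and 1, PRE2, was below 0 on both, against 31.5%. The core median was 0.58 and the regulatory median 0.36. The signal was low on the A array of this time as well. There, 21 members exceeded the blank level in the 5.5 h channel and 18 in the time-zero channel, against 30.5% and 17.6% of all genes. On the B array 33 and 30 members did, against 89.7% and 59.0% of all genes. The part of signal in the 5.5 h values was not tested. At 6.0 h the dye orientations gave opposite signs for the core, with a median of 1.10 on A and -0.62 on B, and at 5.0 h they did too, with -0.85 on A and 0.21 on B.

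RPN4 (YDL020C) was below 0 at 10 of the 11 later times. It was at -1.33, -0.70, -0.52 and -0.79 in the early window, at -0.38, -0.79, -0.39 and -1.59 in the middle window and at -0.36, 1.08 and -1.18 in the late one. The 5.5 h sample was the only later one above 0, with 0.54 on A and 1.63 on B. The arrays disagreed strongly elsewhere: at 2.0 h RPN4 was at -3.54 on A and 1.96 on B, and at 2.5 h at -2.29 on A and 1.53 on B. It was below 0 on both arrays at 0.5, 1.0, 3.5, 4.5 and 6.0 h. Its spots exceeded the blank level on 14 of 22 later arrays in the sampled channel and on 16 of 22 in the time-zero channel.

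In the mean of both arrays, RPN4 did not track the subunits at every time. At 1.5 h it was at -0.52 where the core median was 0.73. Its arrays there differed in sign, at -1.79 on A and 0.75 on B, while the core median was 0.64 on A and 0.81 on B. At 4.5 and 5.5 h RPN4 lay on the same side of 0 as both subunit medians. The 0.0 h sample, which sets time zero against itself, gave RPN4 0.73 on A and 0.91 on B, and its mean of 0.82 was farther from 0 than that of any subunit. Of the genes for known activators of RPN4 (HSF1, YAP1, PDR1 and PDR3), 4 of 4 were below 0 at 4.5 h, against 50.4% of all genes. Their median there was -0.27. The same 4 were also below 0 at 1.5 h (median -0.28) and at 6.0 h (median -0.41), so this was not particular to 4.5 h.

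**Figure D4:**
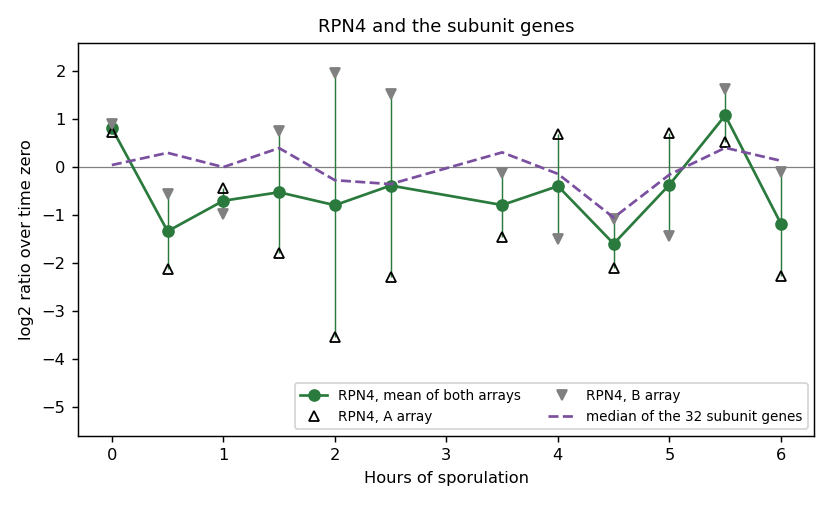
Log2 ratio of RPN4 over time zero (y axis) against hours (x axis) on the A array, on the B array and as their mean, with the median of the 32 subunits. RPN4 is above 0 in the mean at 0.0 and 5.5 h only, and its arrays are farthest apart at 2.0 h, at -3.54 and 1.96.

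Comparisons of windows asked whether the level of each gene differed between stages. They were made with limma over 6283 genes with Benjamini-Hochberg adjustment at 5%, and successive times of a window served as its samples, so that p-values measure the spread between times. None of the 33 genes passed in any of the 4 comparisons. The share of all genes that passed was 0% for early minus zero, 0% for middle minus early, 3.63% for late minus middle and 0.891% for late minus zero. A natural spline of time also called none of the 33, against 0.637% of all genes. Its smallest p among the members belonged to PRE8 (adjusted p = 0.33).

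For early minus zero, the median difference was 0.37 over the core and -0.17 over the regulatory particle, against -0.02 over all genes. Of the core genes 12 of 14 were above 0, against 49.0% of all genes, and of the regulatory genes 16 of 18 were below 0, against 51.0%. These signs rest on the single 0.0 h sample as much as on the early ones. RPN4 differed by -1.65 ± 0.70 (SE, limma adjusted p = 0.824), RPN2 by -1.39 ± 0.69 (adjusted p = 0.825) and PUP1 by 1.26 ± 0.65 (adjusted p = 0.83). Only RPN4 of the 33 had an unadjusted p under 0.05, against 5.87% of all genes. With 0 as the baseline instead of the 0.0 h sample, 11 of 18 regulatory genes and 3 of 14 core genes had an early mean below 0, against 48.8% of all genes. The early mean of RPN4 was then -0.84. PRE6 passed at 1.09 ± 0.31 (limma adjusted p = 0.0401), 1 of 33 members against 11.2% of all genes.

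For middle minus early, the median difference was -0.75 over the core and -0.20 over the regulatory particle, against 0.00 over all genes, and 13 of 14 core genes and 14 of 18 regulatory genes were below 0, against 49.8%. Of the core genes 6 of 14 had an unadjusted p under 0.05 and 0 of 18 regulatory genes did, against 7.31% of all genes; the 6 were PRE6, PRE10, PRE5, PRE7, PUP1 and SCL1. PRE6 averaged -0.44 ± 0.98 in the middle window (SD, n = 4) against 1.09 ± 0.28 in the early one (SD, n = 4), a difference of -1.54 ± 0.44 (SE, limma adjusted p = 0.559). PRE10 differed by -0.81 ± 0.29 (limma adjusted p = 0.614) and PRE5 by -0.99 ± 0.38 (limma adjusted p = 0.614), and RPN4 by 0.05 ± 0.44 (limma adjusted p = 0.992). The gap of -0.54 between the core and regulatory medians was -1.03 on A arrays alone and 0.0105 on B arrays alone. The median over all 33 genes was -0.26, and -0.08 without the 4.5 h sample and -0.49 without the 3.5 h sample.

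For late minus middle, the median difference was 0.56 over the core and 0.43 over the regulatory particle, against 0.03 over all genes. Above 0 were 13 of 14 core genes and 15 of 18 regulatory genes, against 51.5% of all genes. PRE8 averaged 0.72 ± 0.79 in the late window (SD, n = 3) against -0.40 ± 0.42 in the middle one (SD, n = 4), a difference of 1.12 ± 0.37 (SE, limma adjusted p = 0.114). RPT3 differed by 0.96 ± 0.37 (limma adjusted p = 0.18) and RPN5 by 1.39 ± 0.54 (limma adjusted p = 0.183), and RPN4 by 0.64 ± 0.48 (limma adjusted p = 0.528). An unadjusted p under 0.05 was found for 6 of 33 genes, a share of 18.2%, against 19.0% of all genes. The median over the 33 genes of 0.55 was 0.27 without the 4.5 h sample and 0.28 without the 5.5 h sample. It was 0.0321 with windows ending at 1.5 and 4.0 h, where 2.0 h joins the middle window and 4.5 h the late one. PRE8 passed without the 5.0 h sample at 1.56 ± 0.34 (limma adjusted p = 0.0245). It was 1 of 33 members, where 248 of all genes tested passed, against 228 with that sample kept.

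For late minus zero, the core median was 0.25 with 13 of 14 genes above 0, against 48.8% of all genes, and the regulatory median was -0.04 with 8 of 18 above 0. PRE8 differed by 1.04 ± 0.56 (SE, limma adjusted p = 0.497), RPN4 by -0.97 ± 0.73 (limma adjusted p = 0.643) and PRE4 by 0.83 ± 0.64 (limma adjusted p = 0.653). None of the 33 had an unadjusted p under 0.05, against 11.7% of all genes. With 0 as the baseline, RPN5 passed at 1.21 ± 0.41 (limma adjusted p = 0.05), 1 of 33 members against 22.6% of all genes. Without the 5.5 h sample the median over the 33 genes was -0.10, against 0.17 with it.

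**Figure D5:**
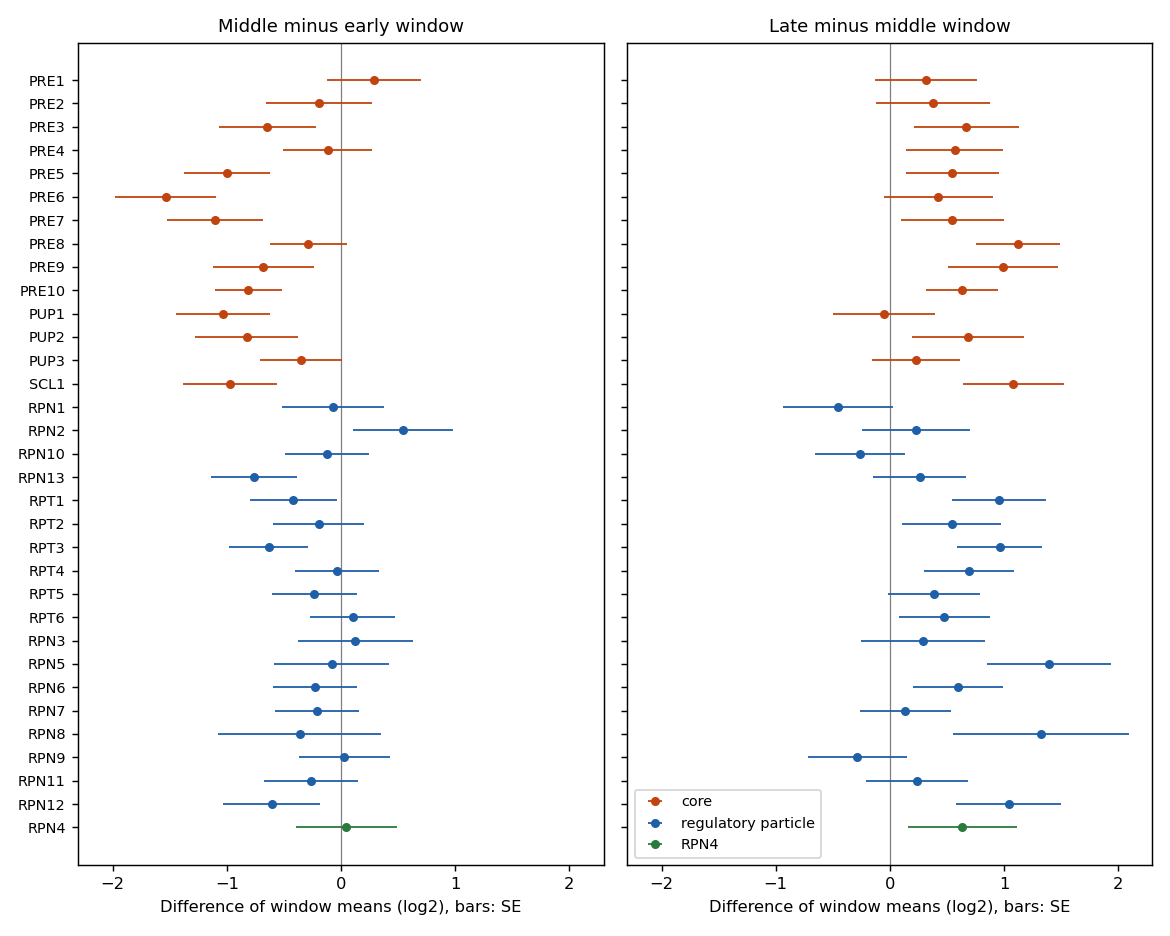
Difference of window means in log2 ratio (x axis, bars are SE) for each of the 33 genes (rows), for middle minus early (left) and late minus middle (right), coloured by core, regulatory particle and RPN4. On the left 13 of 14 core genes lie below 0, with PRE6 lowest at -1.54, and on the right 13 of 14 core and 15 of 18 regulatory genes lie above 0; no gene passed the adjusted threshold.

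Genes that build or feed the proteasome were read in the same fit, and none passed the adjusted threshold in any comparison. Only 0% to 3.63% of all genes passed per comparison, so this count says little. Of 14 accessory genes, 12 were below 0 for middle minus early, against 49.8% of all genes, with a median of -0.38. Among them the assembly chaperone genes ADD66 and PBA1 differed by -0.90 ± 0.39 (SE, limma adjusted p = 0.653) and -0.57 ± 0.26 (limma adjusted p = 0.657). For late minus middle, UBP6, a deubiquitinase bound to the regulatory particle, differed by 0.80 ± 0.35 (limma adjusted p = 0.236) and RPN14, a base assembly chaperone, by 0.81 ± 0.35 (limma adjusted p = 0.23). NAS6, another accessory gene, differed the other way, by -0.48 ± 0.26 (limma adjusted p = 0.359). For late minus middle, 10 of 14 accessory genes were above 0, against 51.5% of all genes, and 4 below. The directions of ADD66, PBA1, UBP6 and RPN14 were those of most core genes in these comparisons, and that of NAS6 was not.

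In the ubiquitin system, UBR1, the ligase of the N-degron pathway, averaged 1.56 late against 0.20 in the middle, a difference of 1.36 ± 0.36 (SE, limma adjusted p = 0.053), just above the threshold of 0.05. CUZ1, a zinc finger protein that binds the proteasome and Cdc48, differed by 2.73 ± 0.88 (limma adjusted p = 0.109). DOA4, a deubiquitinase, differed the other way, by -0.94 ± 0.33 (limma adjusted p = 0.137), and the median over the 25 genes was 0.25. UBC5, a ubiquitin-conjugating enzyme, differed by 2.17 ± 0.61 for late minus zero (limma adjusted p = 0.138), and UBP14, another deubiquitinase, by -1.28 ± 0.58 (limma adjusted p = 0.423). UBC5 stood at -0.30 in the 0.0 h sample against a late mean of 1.87, and UBP14 at 0.80 against -0.48. The 9 vacuolar proteases had a median of -0.12 for late minus middle, with 5 of 9 below 0, against 48.5% of all genes. PEP4, the proteinase that activates others, differed by 1.35 ± 0.55 in that comparison (limma adjusted p = 0.208). PDR1, one of the activators of RPN4, differed by -1.08 ± 0.50 for early minus zero (limma adjusted p = 0.825). It stood at 0.75 in the 0.0 h sample, which sets time zero against itself, and at an early mean of -0.33. As for the members, differences from zero in these lists rest on that single sample too. Of 24 heat-shock chaperones, 22 were below 0 for early minus zero, against 51.0% of all genes, with a median of -1.56. In the 0.0 h sample itself 22 of 24 were above 0, with a median of 0.39. SSA4 differed most, by -3.46 ± 0.64 (limma adjusted p = 0.251), from 0.87 at 0.0 h to an early mean of -2.59.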

How the data were processed

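Each of 24 arrays has 13056 spots, with 2 spots per gene. The deposited intensity values per dye were taken as already background-subtracted, since negative values occur; per the file headers, each array was read from 2 scanned images. The first value column was read as Cy3 on every array, although the headers name the time-zero image first on every array. This was an assumption, made because only then do A and B arrays and the authors' table run the same way at most times. At 5.0 and 6.0 h the A and B values did not do so even then (r = -0.01 and -0.02). The authors' deposited log2 table, with scale and centring not given in the sources used here, served as an alternative; its 0.5 h column did not follow the arrays (r = 0.157).

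Control spots, spots marked U or Z (5 of 1584 member spots) and values at or below 0 were left out, while spots marked S (99) were kept. Log2 ratios were loess-normalised (span 0.3, 4 iterations), the sign of B arrays was turned, and spots, then arrays of a time, were averaged, since both arrays hold the same RNA. R 4.3.3 with limma 3.58.1 fitted 4 window means, and a natural spline with 3 degrees of freedom, to 12 samples over 6283 genes of 6293, tested on simulated data. The 0.0 h sample was assumed to vary like the others. Figures used Python 3.11.15 and matplotlib 3.10.9.

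The number of arrays limits the precision. All headers carry 1 date, so no batch was modelled. The members and lists were chosen with earlier results of these data known. Fit values are given for RPN4, the 3 members with the smallest p per comparison and called members, and for some of the same rank in each other list. Alternatives were single dye orientations, normexp with an offset of 50, median centring, scale normalisation, S spots left out, the dimmest 25% of genes left out, windows ending at 1.5 and 4.0 h, the authors' table, a ratio of 0 as time zero, a spline with 2 degrees of freedom, and each sample left out. Promoter and protein sequences were not analysed here.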

Additional observations from a re-analysis of the deposited data

Results flagged for a closer look

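In 72 groups of 4 samples (each gene, the core and regulatory medians and their difference, in the early and in the middle window), the highest or lowest sample stood apart by Dixon's test in 3, and chance gives about 1 in 20. The lid gene RPN8 was at -0.68 at 2.0 h while its other early samples lay between 0.72 and 0.84; its arrays there were -1.94 on A and 0.58 on B. The ubiquitin receptor RPN10 was at 1.09 at 2.0 h while its other early samples lay between 0.14 and 0.29, with 1.40 on A and 0.78 on B. The deubiquitinase RPN11 was at 0.67 at 3.5 h while its other middle samples lay between -1.07 and -0.80, with -0.49 on A and 1.83 on B.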

How the results depend on the processing

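No member passed in most alternatives: PRE6 passed for early minus zero (1 member) and RPN5 for late minus zero (1 member, 1.21 ± 0.41, limma adjusted p = 0.05) when 0 replaced the 0.0 h sample, and leaving samples out gave 0 to 1 members for late minus middle. Ranges with single samples left out were -0.49 to -0.08 for the members' median of middle minus early and 0.27 to 0.76 for late minus middle. The latter median became 0.0321 with windows ending at 1.5 and 4.0 h, where 2.0 h joins the middle window and 4.5 h the late one. The core-minus-regulatory difference for middle minus early was -1.03 on A arrays and 0.0105 on B arrays, and for late minus zero -0.01 without the 6.0 h sample. RPN4 for middle minus early (0.05) changed sign to -0.59 on B arrays, -0.17 with scale normalisation, -0.0865 without S spots, -0.24 in the authors' table, -0.12 without 0.5 h, -0.089 without 2.5 h and -0.0851 without 4.0 h, with 0.32 without 4.5 h. Median centring without loess gave core medians of 0.19 at 1.5 h, 0.82 at 2.0 h, 0.42 at 2.5 h, -0.64 at 3.5 h and -0.86 at 4.0 h, and regulatory medians of 0.59 at 2.5 h, -1.07 at 3.5 h, -0.48 at 4.0 h and -0.59 at 5.0 h. Scale normalisation gave -1.24 (core) and -1.23 (regulatory) at 4.5 h and 0.41 (core) at 5.5 h; leaving out S spots gave a core median of -0.0556 at 2.0 h; A arrays alone gave -0.43 and the authors' table -0.37 for the core at 2.5 h, while at 4.0 h the authors' values gave 0.0268. The causes were not tested. Of 281 alternative values for named genes, 274 kept their direction; A arrays alone gave none for PRE8. Counts over all genes moved more: 228 for late minus middle became 0 on A or B arrays alone and with the other windows, 36 with scale normalisation, 94 with median centring, 105 with normexp, 117 without the dimmest genes, 120 without S spots, 253 in the authors' table and 124 to 466 with samples left out; 56 for late minus zero ran from 0 to 1422, and 40 for the spline from 0 to 262. The early minus zero count of 0 became 704 against a ratio of 0 and 1 or 12 elsewhere. No paired analysis was possible because each time is 1 pooled sample whose number only names it. The planned search for the Rpn4 motif in promoters was not run.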
